A study of Mus musculus with 8 samples.

Results

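The 46 gene symbols described here belong to mouse solute carrier families that move glucose and other sugars, carboxylates and monocarboxylates such as lactate across membranes. They were taken by symbol, as every name made of Slc2a, Slc5a, Slc13a or Slc16a and a number, from 24063 symbols in the deposited tables. Of the 46, 44 are carrier genes, with 12 of SLC2, 13 of SLC5, 5 of SLC13 and 14 of SLC16. The other symbols are *Slc13a2os*, an RNA antisense to *Slc13a2*, and *Slc2a4rg-ps*, a pseudogene. Both are kept in the counts. The study grew tubuloids, which are tubule-like structures, from fragments of mouse kidney in Matrigel and asked how a pulse of glial-derived neurotrophic factor (GDNF), the ligand of the Ret receptor that drives the ureteric bud, changed their RNA. Growth factor medium containing GDNF was given for 24 h after plating to 4 cultures, and 4 control cultures received the medium without it. GDNF was then withdrawn and all cultures were extracted after 7 days in culture, so the RNA was taken from cells no longer exposed to it. Both groups came from kidneys of postnatal day 7 to 10 and carried the genotype Pkd2fl/fl Pax8rtTA TetOCre mTmG. In that system the *Pax8* promoter drives a transactivator in renal epithelium and doxycycline, which the labels of these cultures do not mention, switches on Cre. The labels do not tie a culture to an animal, so each p value measures only the spread between cultures.

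In the kidney, filtered glucose is taken up by sodium-coupled carriers of the proximal tubule brush border and leaves through facilitative carriers of the basolateral membrane, and carboxylates and monocarboxylates are recovered by other sodium-coupled carriers of the same cells. More distal segments and many cultured epithelia rely on facilitative glucose uptake and on proton-coupled carriers that export or import lactate. The SLC2 family holds the facilitative sugar carriers, SLC5 the sodium-coupled sugar, inositol, vitamin, iodide and monocarboxylate carriers, SLC13 the sodium-coupled sulfate and di- and tricarboxylate carriers, and SLC16 the monocarboxylate carriers and their relatives for amino acids and creatine.

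Total transcript counts were 85536401 to 97490625 in control and 72991721 to 93074126 in GDNF cultures. The library of control culture 3 stood apart, with a TMM scaling factor (the factor that evens out composition between libraries) of 0.790 against 0.963 to 0.982 in the other controls and 1.07 to 1.11 after GDNF. Kidney epithelial markers (6 of 6 present) summed to 339 to 2843 FPKM (fragments per kilobase of transcript relative to depth, here TMM-scaled) in control and 641 to 1041 FPKM in GDNF cultures, and 7 of 7 stromal markers summed to 149 to 1003 FPKM and 112 to 671 FPKM. The epithelial sum was highest in control 3 (2516 FPKM) and control 21 (2843 FPKM), against 843 FPKM in control 7 and 339 FPKM in control 14. Of 13 proximal tubule markers, 10 passed the filter on low counts, and all 13 summed to only 9.69 to 14.5 FPKM in control and 9.99 to 13.8 FPKM in GDNF cultures. Among them *Slc34a1*, the phosphate carrier, and *Slc22a6*, the organic anion carrier, averaged 0.00693 and 0.00366 FPKM, so the sums came from other markers of the list. Endothelial markers summed to 9.52 to 29.8 FPKM over all cultures, 3 leukocyte markers to 3.31 to 31.6 FPKM and 4 globin genes to 0.0298 to 5.32 FPKM. In these bulk cultures fewer cells of a type and less RNA per cell cannot be told apart. In 4 cultures (control 3 and 7, GDNF 6 and 12) *Xist* RNA exceeded Y-linked RNA, and in the other 4 (control 14 and 21, GDNF 17 and 22) Y-linked RNA summed to 116 to 194 TPM (the deposited level per length and depth) with *Xist* at or under 0.111 TPM. The first 4 were not all free of Y-linked RNA. GDNF 6 held 6.46 TPM of it beside 57.4 TPM of *Xist*, control 3 held 1.5 TPM beside 12.5 TPM, and control 7 and GDNF 12 held 0 TPM beside 52.7 and 68.0 TPM.

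Levels of different genes were set side by side per length, as TMM-scaled FPKM of the transcript of each gene with the most counts. A ubiquitous glucose carrier and a pair of lactate carriers led the 46 genes, and most carriers known from the proximal tubule were low. Of the 46 genes, 4 averaged at least 10 FPKM and 23 at least 1 FPKM (21 of the 44 carrier genes). *Slc2a1*, the basal facilitative glucose carrier of most cells (GRCm38 chr4:119108745-119137330), had the highest level, 70.0 ± 23.3 FPKM (SD, n = 8), and made up 34.1% of the summed level of the family. Its level was 119, 63.5, 65.1 and 81.8 FPKM in control cultures 3, 7, 14 and 21, and 43.4, 73.1, 65.4 and 48.6 FPKM in GDNF cultures 6, 12, 17 and 22. Control 3 and 21 lay above every GDNF culture, and control 7 and 14 among them. Control 3 and 21 also had the highest epithelial marker sums, and the part of these in the *Slc2a1* levels was not tested.

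*Slc16a3*, the low-affinity proton-coupled carrier through which glycolytic cells export lactate (GRCm38 chr11:120948484-120959000), came next at 31.8 ± 19.0 FPKM (SD, n = 8). Its level was 45.9, 39.3, 60.5 and 14.8 FPKM in control cultures 3, 7, 14 and 21, and 4.89, 45.0, 27.7 and 16.6 FPKM in GDNF cultures 6, 12, 17 and 22. Cultures of both groups were high and low, with GDNF 6 and control 21 at the bottom. *Slc16a1*, the widespread monocarboxylate carrier of higher affinity (GRCm38 chr3:104638664-104658462), ranked below it at 14.7 ± 4.35 FPKM (SD, n = 8), with levels of 19.1, 11.7, 15.8 and 21 FPKM in the controls and 10.1, 11.3, 18.3 and 10.5 FPKM after GDNF in the same order of cultures. *Slc2a1* lay above *Slc16a3* in each of the 8 cultures, and *Slc16a3* above *Slc16a1* in 6 of 8. The share of *Slc2a1* and *Slc16a3* together in the summed level of the family ranged from 29.7% in GDNF 6 to 61.1% in control 3.

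Stretches just before the RefSeq starts of these leading genes are shown because *Slc2a1* and *Slc16a3* are textbook targets of hypoxia-inducible factors. *Slc2a1* (GRCm38.p6 chr4:119108495-119108744, plus strand) and *Slc16a1* (chr3:104638414-104638663, plus strand) are given for 250 bases. *Slc16a3* is given for the last 30 bases (chr11:120949037-120949066, plus strand), before a listed start that lies downstream of the outermost one. Capitals mark ACGTG, the core of the hypoxia response element, on either strand, which can overlap the E-box CACGTG.
*Slc2a1*: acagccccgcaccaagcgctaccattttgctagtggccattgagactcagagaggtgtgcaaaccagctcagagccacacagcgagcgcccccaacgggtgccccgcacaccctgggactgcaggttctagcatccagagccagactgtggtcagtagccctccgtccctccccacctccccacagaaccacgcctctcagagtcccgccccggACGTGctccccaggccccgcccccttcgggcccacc
*Slc16a3*: gtgACGTGcgcgggggACGTGccgcgcgac
*Slc16a1*: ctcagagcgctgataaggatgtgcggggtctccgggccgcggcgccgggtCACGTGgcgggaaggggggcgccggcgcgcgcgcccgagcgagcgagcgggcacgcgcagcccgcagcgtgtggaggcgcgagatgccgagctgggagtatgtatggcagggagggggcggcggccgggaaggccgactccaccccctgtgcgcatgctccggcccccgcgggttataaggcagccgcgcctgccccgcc
The core began 36 bases before the start in *Slc2a1* and 27 and 14 bases before it in *Slc16a3*, and in *Slc16a1* it formed the palindrome CACGTG from 200 bases before the start. Of 34 members with a listed promoter, 6 (17.6%) held the core within the 250 bases, beside 16.6% of all 32851 listed promoters. A member counted if any of its listed promoters held the core, while the share over all was taken per promoter, so the shares are not strictly comparable. The other members holding it were *Slc13a3*, *Slc16a12* and *Slc5a1*, of which *Slc13a3* and *Slc5a1* had mean levels of 0.0310 and 0.539 FPKM. A match describes these letters only and is no measure of binding.

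Behind the leading genes the levels fell off without a gap. *Slc2a8*, a class III facilitative carrier of inner membranes, had a level of 9.04, 9.48, 14.9 and 9.94 FPKM in control cultures 3, 7, 14 and 21 and 17.3, 12.9, 14.7 and 13.8 FPKM in GDNF cultures 6, 12, 17 and 22. The GDNF cultures lay above 3 of the controls and around control 14. *Slc16a12*, a creatine carrier, stood at 11.7, 12.1, 6.39 and 7.57 FPKM in the controls and 11.5, 9.06, 5.84 and 13.1 FPKM after GDNF, with full overlap. *Slc5a3*, the sodium-coupled myo-inositol carrier that cells use to accumulate osmolyte, stood at 9.54, 8.71, 7.31 and 6.23 FPKM in the controls and 9.42, 7.51, 7.76 and 8.37 FPKM after GDNF. The means of *Slc16a12* (9.65 FPKM) and *Slc5a3* (8.11 FPKM) lay closer together than the SD of *Slc16a12* over the cultures (2.80 FPKM). *Slc5a3* shares 29138 bp of its locus with *Mrps6*, a mitochondrial ribosomal protein gene, and since strand handling is not stated in the sources used here, their reads cannot be told apart.

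*Slc5a2*, the main glucose carrier of the early proximal tubule (GRCm38 chr7:128265683-128272430), was seventh at 7.68 ± 1.53 FPKM (SD, n = 8). In these cultures the proximal markers *Slc34a1* and *Slc22a6* were near 0, while all 13 summed to 9.69 to 14.5 FPKM in control and 9.99 to 13.8 FPKM after GDNF. The level of *Slc5a2* was 5.01, 6.74, 8.15 and 6.38 FPKM in control cultures 3, 7, 14 and 21, and 7.72, 8.98, 9.42 and 9.01 FPKM in GDNF cultures 6, 12, 17 and 22. It exceeded its relative *Slc5a1*, the high-affinity sodium-coupled glucose and galactose carrier of the later proximal tubule, which averaged 0.539 FPKM and reached 1.49 FPKM in GDNF 6. The nearest listed gene, *Tgfb1i1*, is 9984 bp away from *Slc5a2* and no listed gene overlaps it. A gene missing from that list would not be seen, so overlap with such a gene was not examined. *Slc2a2*, the carrier through which proximal cells release glucose to the blood, averaged 0.369 FPKM. The gluconeogenic *G6pc* had 0 counts in each culture, which allows up to 3 counts, and *Fbp1* averaged 0.0418 FPKM.

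The 12 highest also included *Slc5a6*, the multivitamin carrier (4.75 to 8.36 FPKM), *Slc16a13* (4.18 to 7.03 FPKM), *Slc2a3*, the high-affinity glucose carrier known from neurons (2.05 to 6.62 FPKM), and *Slc16a5* (1.27 to 3.85 FPKM). *Slc5a6* had levels of 8.36, 6.97, 7.99 and 4.75 FPKM in control cultures 3, 7, 14 and 21 and 5.57, 4.96, 5.62 and 5.98 FPKM in GDNF cultures 6, 12, 17 and 22. Control 3, 7 and 14 lay above its GDNF cultures and control 21 below them, although on summed counts of its 3 transcripts the groups were closer. *Slc16a13* stood at 6.52, 4.61, 5.15 and 7.03 FPKM in the controls and 6.63, 6.27, 4.18 and 5.48 FPKM after GDNF. *Slc16a5* stood at 3.26, 3.85, 1.68 and 1.93 FPKM in the controls and 3.71, 3.36, 1.27 and 3.18 FPKM after GDNF. In both, the groups overlapped.

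**Figure D1:**
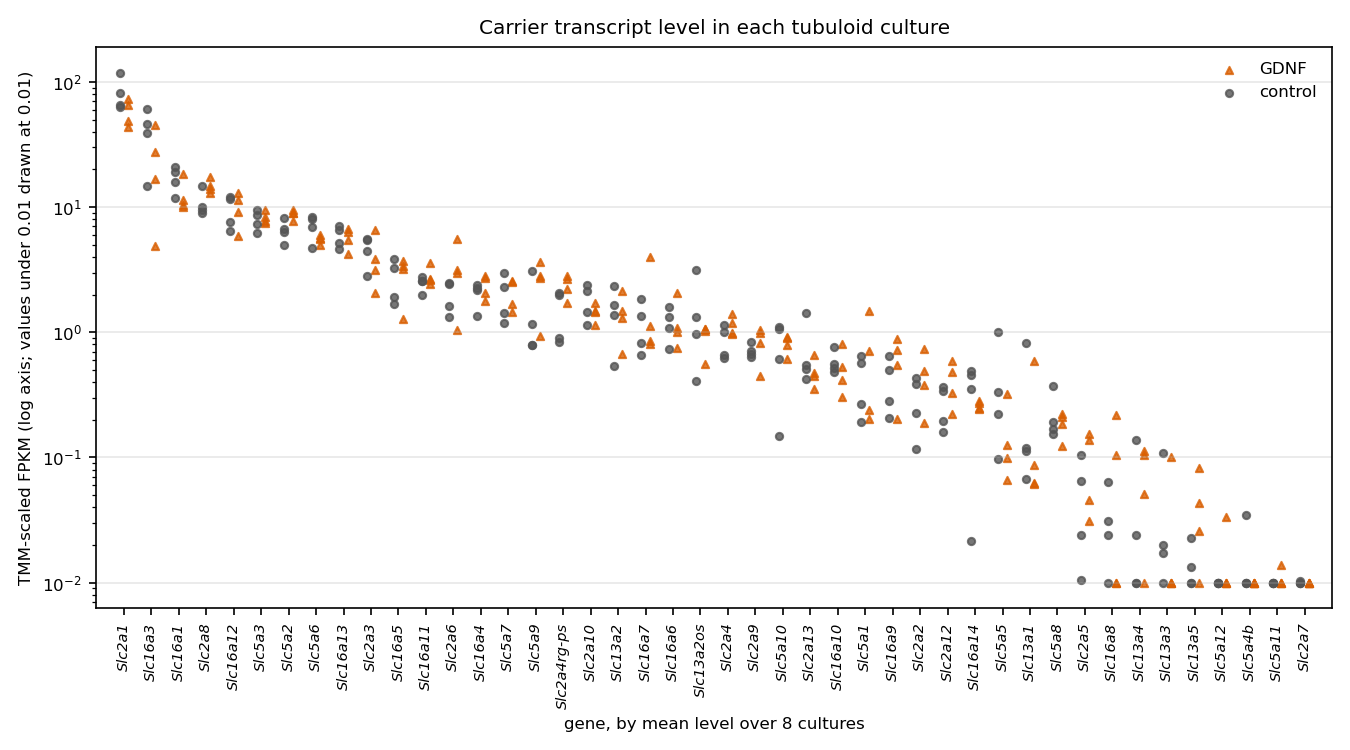
TMM-scaled FPKM (log axis) of carrier symbols with a count in any culture (1 not drawn), ordered by mean level, with 1 point per culture (circles control, triangles GDNF). *Slc2a1* (43.4 to 119 FPKM) and *Slc16a3* (4.89 to 60.5 FPKM) lead, and the groups overlap for each gene tested on the CPM scale.

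Carriers of carboxylates and sulfate were sparse. *Slc13a2*, the dicarboxylate carrier of the apical membrane, averaged 1.44 FPKM, *Slc13a3*, its basolateral counterpart, 0.0310 FPKM, and *Slc13a5*, the citrate carrier, 0.0234 FPKM. The sodium-coupled monocarboxylate carriers *Slc5a8* and *Slc5a12*, which recover lactate in the proximal tubule, averaged 0.203 and 0.00707 FPKM. The sulfate carrier *Slc13a1* averaged 0.240 FPKM, and its values in control 14 (0.816 FPKM) and GDNF 17 (0.592 FPKM) stood above 0.0608 to 0.118 FPKM in the other cultures. *Slc13a2* shares 8382 bp with the antisense *Slc13a2os*, which averaged 1.19 FPKM, and their reads cannot be told apart. *Slc5a4a* had 0 counts in all 8 cultures, which allows up to 3 counts in each, and 3 symbols did not exceed 3 counts in any culture.

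For the comparison of groups, counts were summed per symbol and 38 of the 46 symbols passed the filter on low counts (36 of 44 carrier genes). The 8 left out were *Slc13a3*, *Slc13a5*, *Slc16a8*, *Slc2a7*, *Slc5a11*, *Slc5a12*, *Slc5a4a* and *Slc5a4b*, none above 0.248 CPM (counts relative to library size, TMM-scaled). No carrier gene passed the test of GDNF against control. edgeR's quasi-likelihood test gave 0 of 38 symbols an adjusted p under 0.05 (0.0% of all 16557 genes tested) and 0 of 38 an unadjusted p under 0.05 (22.1% of all genes). DESeq2 gave an adjusted p for 7 of the 38, with 0 under 0.05 (8.13% of all 16557 genes, those without an adjusted p included). It gave 1 of 38, *Slc2a1*, an unadjusted p under 0.05 (23.5% of all genes). For 0 of 38 symbols did all cultures of one group lie above all of the other (13.2% of all genes, 6.99% with GDNF higher and 6.26% with GDNF lower). For the 36 carrier genes alone these counts of called genes were the same.

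Means were higher after GDNF for 23 symbols and lower for 15, or 22 and 14 of the 36 carrier genes (52.5% of all genes tested had the higher mean after GDNF), and the median log2 fold change was 0.07 for the 38 and 0.03 for all genes. Without the composition scaling these medians became 0.29 and 0.25, a shift of the whole table. The adjusted p values of the 38 from edgeR ran from 0.226 to 0.940. Intervals differed widely in width. For 16 symbols the 95% interval lay within 2-fold either way, and for 22 it reached beyond (16 and 20 for the carrier genes). The median standard error was 0.37 on the log2 scale, against 0.24 for all genes, and the median coefficient of variation over the 8 cultures was 37.2% against 27.9%.

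**Figure D2:**
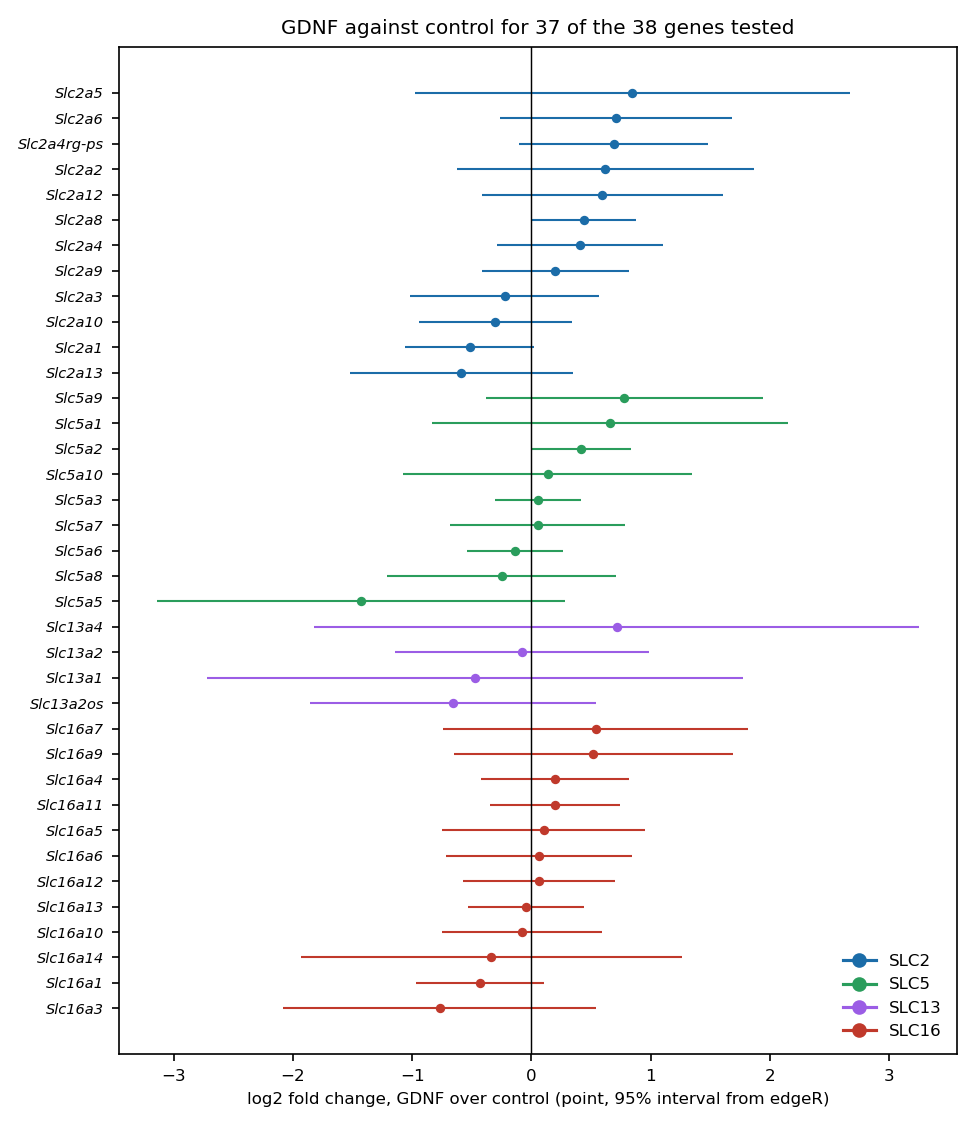
log2 fold change of GDNF over control (point) with its 95% interval from edgeR for 37 of the 38 symbols tested, ordered within each family. The intervals drawn all include 0, with *Slc5a2* (0.42), *Slc2a8* (0.44) and *Slc2a1* (-0.52) nearest to leaving it out.

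Among facilitative glucose carriers, *Slc2a1* had the lower mean after GDNF and *Slc2a8* the higher. Summed counts of *Slc2a1* were 196, 104, 107 and 135 CPM in control cultures 3, 7, 14 and 21 and 71.5, 120, 108 and 80.1 CPM in GDNF cultures 6, 12, 17 and 22. All 4 controls lay above the GDNF median, but GDNF 12 and 17 lay among the controls. The log2 fold change of *Slc2a1* was -0.52 (SE 0.24, edgeR adjusted p = 0.241, 95% interval -1.06 to 0.02). Without control 3 it was -0.28 (edgeR adjusted p = 0.536), and on library size alone -0.27. *Slc2a8* stood at 12.1, 12.6, 19.8 and 13.2 CPM in the controls and 23.1, 17.1, 19.6 and 18.5 CPM after GDNF, a log2 fold change of 0.44 (SE 0.20, edgeR adjusted p = 0.229). Control 14 alone kept its groups from separating.

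Other SLC2 genes of sugar uptake varied more. *Slc2a3* had 14.2, 13.8, 11.2 and 7.09 CPM in control cultures 3, 7, 14 and 21 and 5.2, 16.8, 7.95 and 9.70 CPM in GDNF cultures 6, 12, 17 and 22, with its highest and lowest values both after GDNF and a log2 fold change of -0.23 (SE 0.35). *Slc2a4*, the insulin-responsive carrier, had 1.14, 1.83, 2.06 and 1.18 CPM in the controls and 1.76, 2.52, 2.16 and 1.80 CPM after GDNF. The log2 fold change of *Slc2a4* was 0.41 (SE 0.31). *Slc2a6*, of lysosomal membranes, had 3.57, 6.71, 6.55 and 4.36 CPM in the controls and 15.2, 8.52, 2.82 and 8.10 CPM after GDNF, where 3 cultures were above and 1 below every control. *Slc2a12* had 0.388, 0.470, 0.886 and 0.821 CPM in the controls and 1.15, 0.539, 1.41 and 0.780 CPM after GDNF. *Slc2a13*, a proton-coupled myo-inositol carrier, had 1.77, 2.29, 5.93 and 2.13 CPM in the controls and 1.96, 1.86, 2.77 and 1.49 CPM after GDNF, so that its log2 fold change of -0.59 (SE 0.42) became -0.03 without control 14. The pseudogene *Slc2a4rg-ps* had 1.73, 3.81, 3.94 and 1.61 CPM in the controls and 5.07, 5.37, 4.24 and 3.25 CPM after GDNF. Its whole locus, 3347 bp, lies inside that of *Zbtb46*, a transcription factor gene with a mean of 36.5 CPM, and reads of the pair cannot be told apart.

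By class, 2 of the 4 class I genes had the higher mean, as did 2 of 2 tested class II genes and 3 of 5 class III genes. The summed level of class III was 12.4 to 21.5 FPKM in control and 18.1 to 24.9 FPKM in GDNF cultures, and most of it was *Slc2a8*. The class II genes were low, with *Slc2a9*, a urate carrier, at 0.769 FPKM and *Slc2a5*, the fructose carrier, at 0.0713 FPKM. *Slc2a10* and *Slc2a2* had log2 fold changes of -0.30 (SE 0.29) and 0.62 (SE 0.56).

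Of the sodium-coupled sugar carriers, 4 of 4 tested genes had the higher mean after GDNF and 0 of 4 passed the test. *Slc5a2* counts were 7.26, 9.75, 11.8 and 9.23 CPM in control cultures 3, 7, 14 and 21 and 11.2, 13, 13.6 and 13 CPM in GDNF cultures 6, 12, 17 and 22. The groups overlapped only in control 14 and GDNF 6. Its log2 fold change was 0.42 (SE 0.19, edgeR adjusted p = 0.226, 95% interval 0.00 to 0.84), and over the alternatives it ranged from 0.31 to 0.62 with edgeR or limma adjusted p values of 0.161 to 0.426. Of the proximal tubule markers, 1 of the 10 tested, *Slc22a8*, an organic anion carrier, had a higher mean at an unadjusted p under 0.05 in edgeR (9.25% of all genes), with a log2 fold change of 1.77 (SE 0.64, edgeR adjusted p = 0.177), and 7 of the 10 had the higher mean. Whether the proximal markers account for any difference in *Slc5a2* was not tested. *Slc5a9*, a mannose and glucose carrier, had 2.22, 8.64, 2.20 and 3.26 CPM in the controls and 7.87, 10.1, 2.61 and 7.52 CPM after GDNF, a log2 fold change of 0.78 (SE 0.52) that was 1.45 without control 7 and 0.58 without control 3. *Slc5a1* and *Slc5a10* had log2 fold changes of 0.66 (SE 0.67) and 0.14 (SE 0.54).

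Of the other SLC5 genes, *Slc5a5*, the iodide carrier, had the largest difference of all 38 and one of the widest intervals. Its counts were 0.623, 0.418, 0.181 and 1.88 CPM in control cultures 3, 7, 14 and 21 and 0.237, 0.598, 0.185 and 0.124 CPM in GDNF cultures 6, 12, 17 and 22. Control 21 carried most of the difference, since the log2 fold change of -1.43 (SE 0.77, edgeR adjusted p = 0.293) was -0.54 when 1 culture, control 21, was left out. *Slc5a3* had 66.7, 60.8, 51.0 and 43.5 CPM in the controls and 65.8, 52.4, 54.1 and 58.4 CPM after GDNF. Its log2 fold change of 0.06 (SE 0.16) had the narrowest interval of all 38, from -0.31 to 0.42, but with a correction for transcript length it became -0.45. At 10913 bases its transcript is the longest of the family. *Slc5a6* stood at 23.4, 21.5, 22.7 and 15.3 CPM in the controls and 18.7, 15.6, 19 and 22 CPM after GDNF, with a log2 fold change of -0.14 (SE 0.18). The choline carrier *Slc5a7* (3.95 to 9.85 CPM) and the monocarboxylate carrier *Slc5a8* (0.421 to 1.26 CPM) had log2 fold changes of 0.05 (SE 0.33) and -0.25 (SE 0.43).

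**Figure D3:**
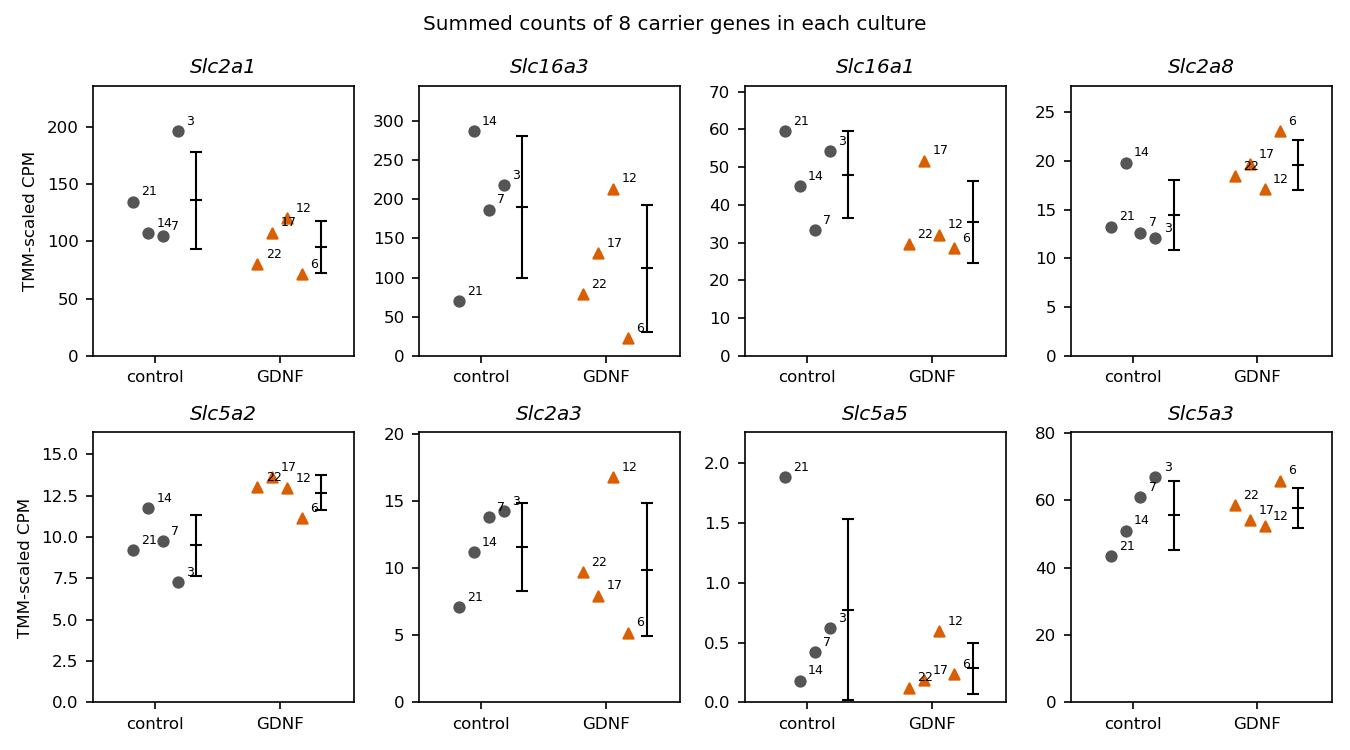
TMM-scaled CPM of summed counts for 8 carrier genes (each panel on its own linear axis from 0), with points for cultures, marked with culture numbers, and bars for mean and SD (n = 4 per group). Groups overlap in every panel, in *Slc5a2* only through control 14 (11.8 CPM) and GDNF 6 (11.2 CPM), and *Slc16a3* ranges from 23.1 to 287 CPM.

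Of 3 tested proton-coupled monocarboxylate carriers, *Slc16a1* and *Slc16a3* had the lower mean after GDNF and *Slc16a7* the higher, and 0 of 3 passed the test. *Slc16a1* had 54.2, 33.3, 44.9 and 59.6 CPM in control cultures 3, 7, 14 and 21 and 28.6, 32.1, 51.7 and 29.7 CPM in GDNF cultures 6, 12, 17 and 22. GDNF 6, 12 and 22 lay below every control and GDNF 17 among them. The log2 fold change of *Slc16a1* was -0.43 (SE 0.24, edgeR adjusted p = 0.306), and -0.67 without GDNF 17 (edgeR adjusted p = 0.281). Without control 3 it was -0.37 (edgeR adjusted p = 0.537), and on library size alone -0.21. *Slc16a3* had 218, 187, 287 and 70.0 CPM in the controls and 23.1, 213, 131 and 78.9 CPM after GDNF, a 12.4-fold range over the 8 cultures. Its log2 fold change was -0.77 (SE 0.59, edgeR adjusted p = 0.453, 95% interval -2.08 to 0.54), and it was -1.29 without GDNF 12 and -0.43 without GDNF 6. Part of the *Slc16a3* locus, 1292 bp, overlaps *Csnk1d*, a kinase gene with a mean of 228 CPM. *Slc16a7*, a carrier of pyruvate and lactate, stood between 1.01 and 2.84 CPM in 7 cultures and at 6.18 CPM in GDNF 6, with a log2 fold change of 0.54 (SE 0.57).

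Within each culture the ratio of *Slc16a3* to *Slc16a1* levels does not depend on the scaling between cultures. It was 2.41, 3.35, 3.82 and 0.702 in control cultures 3, 7, 14 and 21 and 0.485, 3.97, 1.52 and 1.59 in GDNF cultures 6, 12, 17 and 22. *Slc16a1* was the higher of the pair only in control 21 and GDNF 6. The mean log2 ratio was 1.11 ± 1.11 (SD, n = 4) in control and 0.55 ± 1.24 (SD, n = 4) after GDNF, a difference of -0.55 (two-sided exact permutation test over 70 assignments, p = 0.543, adjusted over 2 ratios 0.571, smallest possible 0.0286). The ratio of *Slc2a3* to *Slc2a1* levels ran from 0.0342 in control 21 to 0.0906 in GDNF 12. Its mean log2 value was -4.17 ± 0.58 (SD, n = 4) in control and -3.98 ± 0.48 (SD, n = 4) after GDNF, a difference of 0.20 (two-sided exact permutation test, p = 0.571, adjusted 0.571). Both differences were smaller than the spread between cultures.

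Of 8 other SLC16 genes, with varied or little-known substrates, 0 passed the test. Of the 8, 6 had the higher mean and 2 the lower, with log2 fold changes between -0.33 (*Slc16a14*, SE 0.72) and 0.52 (*Slc16a9*, SE 0.53). *Slc16a12* stood at 29, 29.9, 15.8 and 18.7 CPM in control cultures 3, 7, 14 and 21 and 28.4, 22.4, 14.5 and 32.3 CPM in GDNF cultures 6, 12, 17 and 22, a log2 fold change of 0.06 (SE 0.29). *Slc16a10*, an aromatic amino acid carrier, had a log2 fold change of -0.08 (SE 0.30). These values, and those of *Slc16a13* (-0.05, SE 0.22) and *Slc16a5* (0.10, SE 0.38), lay well inside their errors.

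In 4 of the 38, all cultures with more *Xist* than Y-linked RNA, of which control 3 and GDNF 6 held some of both, lay above the other 4 cultures (3.31% of all genes), and in 0 of the 38 was it the other way round (5.63% of all genes in either direction). This was looked at after the values were seen and was not tested. *Slc5a1* had 1.44 CPM or more in each culture with more *Xist* RNA and at most 0.667 CPM in the others, and *Slc16a7* at least 1.75 CPM against at most 1.31 CPM. For *Slc16a5* (6.30 against 6.16 CPM) and *Slc16a10* (2.35 against 2.30 CPM) the lowest culture of the first kind and the highest of the second were close. Within the kinds, with 2 cultures per group in each, GDNF over control was 0.51 and 0.34 on the log2 scale for *Slc5a2* (more *Xist*, more Y-linked RNA), 0.70 and 0.20 for *Slc2a8*, -0.65 and -0.37 for *Slc2a1*, and -0.53 and -0.36 for *Slc16a1*. The 2 kinds had the same sign in 22 of the 38 and opposite signs in 16, among them *Slc16a12* (-0.21 and 0.44), *Slc5a3* (-0.11 and 0.25) and *Slc5a6* (-0.39 and 0.11). The share of all genes with the same sign was not worked out, so equal signs cannot be read as a result repeated between the kinds.

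Genes of pathways around the carriers are given by list, and the lists were chosen with earlier results of these data known. Their counts beside the shares of all genes are a description and no independent support. Of 15 genes of glucose phosphorylation and lactate formation, 6 were lower and 0 higher at an unadjusted p under 0.05 in edgeR (12.9% and 9.25% of all genes), and 0 at an adjusted p under 0.05. On library size only, 4 were lower and 2 higher (5.13% and 19.9% of all genes), and without control 3, 4 were lower and 0 higher (8.18% and 5.86% of all genes). The median log2 fold change of the 15 was -0.54, beside 0.03 for all genes and 0.07 for the 38 carrier symbols. The carriers differed in both directions, with a median absolute log2 fold change of 0.41, and the sets were not compared by a test. In 4 of the 15 (*Ldha*, *Pgk1*, *Aldoa* and *Eno1*) all controls lay above all GDNF cultures, against 6.26% of all genes. *Ldha*, which makes lactate from pyruvate, had 8027, 4199, 5535 and 4121 CPM in control cultures 3, 7, 14 and 21 and 1877, 3081, 2596 and 2079 CPM in GDNF cultures 6, 12, 17 and 22. The log2 fold change of *Ldha* was -1.18 (SE 0.26, edgeR adjusted p = 0.167, DESeq2 adjusted p = 0.00497) and -0.94 without control 3. *Pgk1*, which makes ATP in lower glycolysis, differed by -1.32 (SE 0.32), the aldolase gene *Aldoa* by -0.94 (SE 0.26) and the enolase gene *Eno1* by -0.87 (SE 0.26), each at an edgeR adjusted p of 0.167, the smallest in the whole table. Their DESeq2 adjusted p values were 0.0127, 0.0214 and 0.0257. Of the cell type markers, 1 of 6 epithelial genes (the keratin *Krt8*, -1.45, SE 0.63) and 1 of 7 stromal genes (the proteoglycan *Lum*, -1.30, SE 0.37) were also lower at an unadjusted p under 0.05 in edgeR (12.9% of all genes), *Krt8* not without control 3, and their part in the lower enzyme means was not tested.

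Partners that bring carriers to the membrane, hold them there or promote their removal were measured for 7 of 9 listed symbols. Of the 7, 1, *Bsg*, was lower at an unadjusted p under 0.05 in edgeR (12.9% of all genes). *Bsg*, the chaperone of *Slc16a1* and *Slc16a3*, had 1620, 933, 1061 and 706 CPM in the controls and 745, 730, 562 and 490 CPM after GDNF, and GDNF 6 and 12 lay above control 21. Its log2 fold change was -0.77 (SE 0.26, edgeR adjusted p = 0.167, DESeq2 adjusted p = 0.0325), and -0.51 without control 3. *Emb*, the chaperone of *Slc16a7*, had -0.57 (SE 0.28), or -0.33 without control 3, *Txnip*, which promotes removal of *Slc2a1* from the membrane, 0.23 (SE 0.13), and the scaffold *Pdzk1* 0.43 (SE 0.29).

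Among 6 sugar-sensing and hypoxia factors, 2 were higher and 1 lower at an unadjusted p under 0.05 in edgeR (9.25% and 12.9% of all genes), and the same 3 had groups without overlap (13.2% of all genes). *Mlxipl*, the glucose-responsive factor ChREBP, was low and had 0.609, 1.14, 0.598 and 0.940 CPM in control cultures 3, 7, 14 and 21 and 3.12, 1.96, 1.43 and 1.78 CPM in GDNF cultures 6, 12, 17 and 22, a log2 fold change of 1.33 (SE 0.38, edgeR adjusted p = 0.167). *Mlxip*, its relative MondoA, had 52.8, 75.3, 58.5 and 78.0 CPM in the controls and 114, 99.2, 92.7 and 106 CPM after GDNF, a log2 fold change of 0.64 (SE 0.16, edgeR adjusted p = 0.167) that was 0.30 with a correction for transcript length. *Mlx*, the partner of both, differed by -0.46 (SE 0.17, edgeR adjusted p = 0.177) and *Epas1*, a hypoxia-inducible factor, by 0.62 (SE 0.34).

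Of 5 measured osmolyte genes, 1 was higher and 1 lower at an unadjusted p under 0.05 in edgeR (9.25% and 12.9% of all genes). *Nfat5*, the tonicity factor that acts on *Slc5a3*, differed by 0.62 (SE 0.22, edgeR adjusted p = 0.177), or 0.17 with the length correction, and *Akr1b3*, which makes sorbitol, by -0.84 (SE 0.31, edgeR adjusted p = 0.177), or -0.56 (unadjusted p = 0.0697 in edgeR) without control 3. The taurine carrier *Slc6a6* and the betaine carrier *Slc6a12* had log2 fold changes of 0.30 (SE 0.14), or -0.01 with the length correction, and 0.41 (SE 0.63). Of 5 genes of ketone and lactate use, 2 were lower at an unadjusted p under 0.05 in edgeR (12.9% of all genes), *Oxct1*, which activates ketone bodies, by -0.63 (SE 0.15, edgeR adjusted p = 0.167, groups without overlap) and *Acat1*, a ketone body thiolase, by -0.57 (SE 0.20, edgeR adjusted p = 0.170), while *Bdh1* and *Ldhd* had -0.61 (SE 0.43) and 0.48 (SE 0.42), and *Bdh1* -0.33 without control 3. Of 6 genes of citrate and dicarboxylate metabolism 0 passed either threshold in edgeR (0.0% of all genes adjusted, 22.1% unadjusted). *Acly*, *Cs* and *Aco1* had log2 fold changes of 0.19, -0.32 and 0.09. Adjusted p values of these 3 were at least 0.161 under every edgeR, limma or DESeq2 alternative. Of 4 genes of glucose production, 2 were tested, *Pck1* at 0.48 (SE 0.54) and *Pcx* at 0.19 (SE 0.20).

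**Figure D4:**
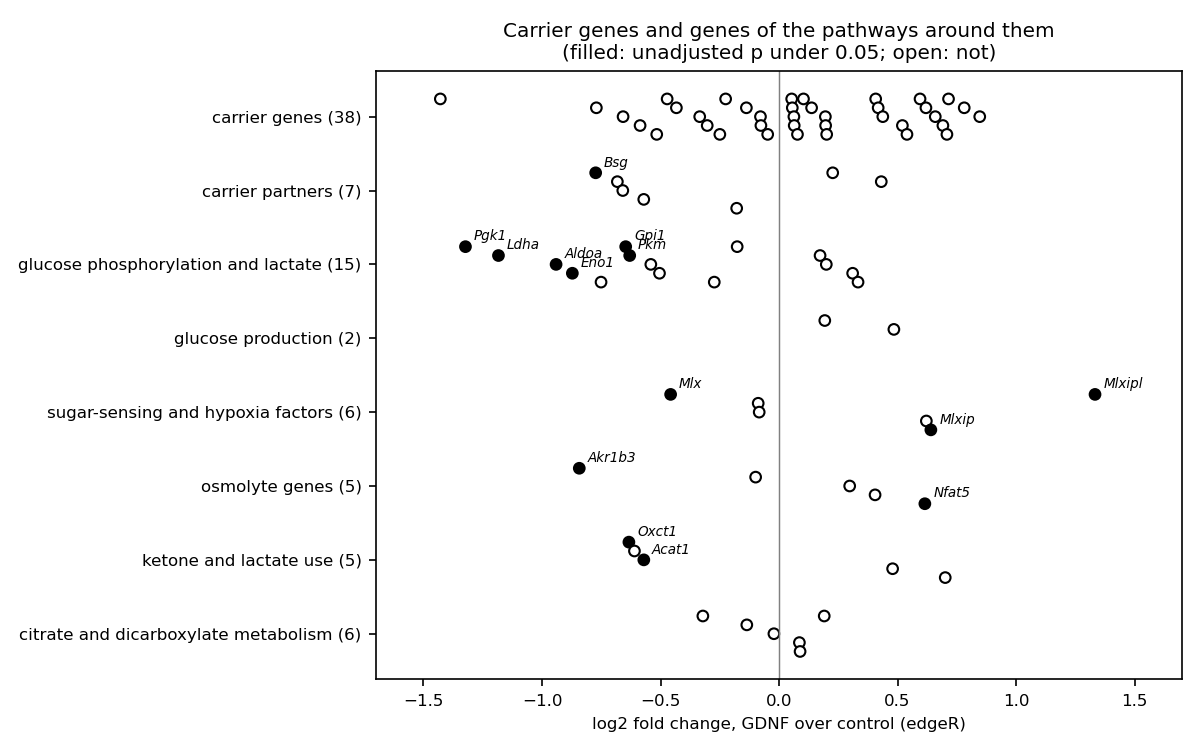
log2 fold change of GDNF over control (edgeR, linear axis) for the 38 carrier symbols and the genes of each pathway list, with the number tested in brackets and vertical offsets for legibility only. Filled points have an unadjusted p under 0.05 in edgeR (22.1% of all genes). None of the 38 carriers is filled, though DESeq2 gave 1 (23.5% of all genes). Of 15 genes of glucose phosphorylation and lactate 6 are filled, all lower (12.9% of all genes).

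*Slc16a3*, the most variable of the leading carriers, was set beside 6 genes across the 8 cultures, on log2 FPKM with 0.01 added. The 6 relations were chosen after the values were seen, and each pools the groups, which hold too few cultures to be read alone. The permutations ignore the groups, and in *Pgk1* and *Ldha* each GDNF culture lay below all controls. Their p values therefore take in the difference between groups, and the adjustment covers only these 6 relations. *Slc2a3* had Pearson's r of 0.867 (exact permutation p = 0.00486, adjusted 0.0292) and Spearman's rho of 0.810 (permutation p = 0.0218, adjusted 0.0559), but r was 0.581 (permutation p = 0.225) without control 21 and GDNF 6, the cultures farthest from the median, so the relation rests on them. *Pgk1* had r of 0.810 (exact permutation p = 0.0124, adjusted 0.0371) and rho of 0.786 (permutation p = 0.0279, adjusted 0.0559), and r of 0.839 (permutation p = 0.0319) without those cultures. For *Ldha* r was 0.705 (exact permutation p = 0.0474, adjusted 0.0947), rho 0.786 (permutation p = 0.0279, adjusted 0.0559) and r without those cultures 0.786 (permutation p = 0.0583). *Bsg*, *Slc2a1* and *Slc16a1* had r of 0.476, 0.600 and 0.326 and rho of 0.619, 0.429 and 0.286, with adjusted permutation p values of 0.286, 0.182 and 0.450 for r and 0.172, 0.359 and 0.501 for rho, and r without those cultures of 0.776, 0.579 and 0.386. GDNF 6, lowest in *Slc16a3*, was also lowest in *Slc2a3* (2.05 FPKM), *Pgk1* (57.0 FPKM) and *Ldha* (605 FPKM).

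**Figure D5:**
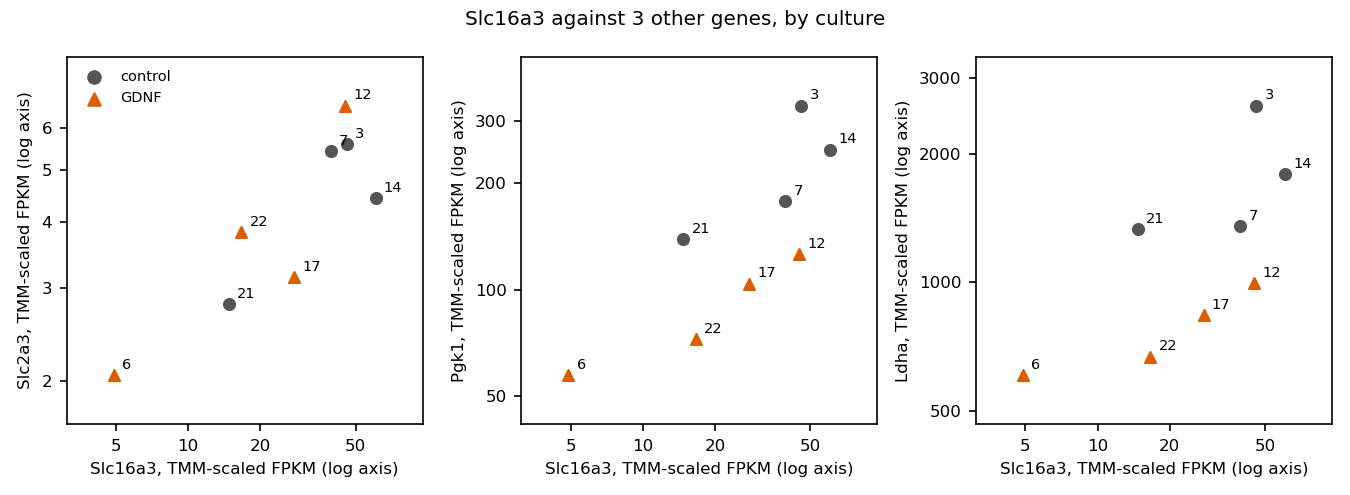
TMM-scaled FPKM of *Slc2a3*, *Pgk1* and *Ldha* against *Slc16a3* (both axes log), 1 point per culture, marked with its number (circles control, triangles GDNF). GDNF 6 has the lowest value of all 4 genes, and each GDNF culture lies below all controls in *Pgk1* and *Ldha*.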

How the data were processed

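RNA of 8 tubuloid cultures was sequenced from SMART-Seq v4 libraries with poly-A selection. The submitters' processing notes name STAR, featureCounts and DESeq2 and the builds mm10 and GRCm38, without versions. The authors deposited, per RefSeq transcript, whole-number counts without normalization, FPKM per length and depth, and TPM. Transcript lengths worked out from the counts and FPKM came out whole (within 0.01 bases) for 100% of transcripts with counts. Strand and multi-mapping rules are not given in the sources used here. A read shared by transcripts may enter the sum of a gene more than once, so 1 transcript per gene was tried as an alternative.

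Counts were summed per symbol and tested with edgeR 4.0.16 (filterByExpr, TMM, glmQLFit, glmQLFTest; R 4.3.3), adjusted by Benjamini-Hochberg over 16557 genes at 0.05. Standard errors are the absolute log2 fold change over the root of F. Levels are deposited FPKM of the transcript with the most counts, TMM-scaled over 1 transcript per gene. Ratios were compared by exact permutation. DESeq2 1.42.0, limma 3.58.1, other scalings and filters, an *Xist* or Y-linked term, a length trend (spline with 5 degrees of freedom) and leaving out each culture were alternatives. Scripts were tested on simulated data. Total counts of 72991721 to 97490625 make counting error small beside the spread between cultures, except at a few counts. Promoters and coordinates are from RefSeq on GRCm38.p6, which held all 46 symbols and promoters of 34. The authors' TPM served as an alternative level. Values per culture are given for the 12 highest members, the 12 with the smallest p and ratio partners, and up to 4 genes are named per pathway list. The symbols *Nherf1* and *Trarg1* of the partner list and *Akr1b1* and *Adgre1* of others were not matched. Members and lists were chosen with earlier results of these data known. The own values of 1 carrier gene and 1 pathway gene are not reported here, though both are in the counts.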

Additional observations from a re-analysis of the deposited data

Results flagged for a closer look

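In 8 of 80 groups of 4 cultures, the highest or lowest culture stood far from the other 3 by Dixon's criterion. The groups were 38 genes and 2 ratios, each in both treatment groups. Chance gives about 4 for independent groups of normally distributed values. These groups share the same cultures, the ratios reuse listed genes, and the gene values are CPM without logs, so the 8 cannot be read as an excess. *Slc13a1* stood out at 1.30 CPM in control 14 (others 0.107 to 0.188 CPM) and at 0.945 CPM in GDNF 17 (others 0.0971 to 0.140 CPM). Control 14 also stood out in *Slc2a13* at 5.93 CPM (others 1.77 to 2.29 CPM) and in *Slc2a8* at 19.8 CPM (others 12.1 to 13.2 CPM). *Slc5a9* was at 8.64 CPM in control 7 (others 2.20 to 3.26 CPM). *Slc16a1* was at 51.7 CPM in GDNF 17 (others 28.6 to 32.1 CPM), *Slc16a7* at 6.18 CPM in GDNF 6 (others 1.24 to 1.75 CPM), and *Slc13a2os* at 1.30 CPM in GDNF 22, below the others (2.35 to 2.46 CPM).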

How the results depend on the processing

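No alternative gave any of the 38 symbols an adjusted p under 0.05, although DESeq2 gave 31 of them none. The counts that follow are of the 38 symbols, with *Slc13a2os* and *Slc2a4rg-ps* among them. The number at an unadjusted p under 0.05, 0 as reported, was 1 with DESeq2 size factors, DESeq2 or robust dispersion (21.5%, 23.5% and 22.2% of all genes), 2 with a filter of 1 CPM, limma-voom, 1 transcript per gene or the *Xist* or Y-linked term (25.9%, 22.5%, 22.4% and 24.0%), and 3 on library size only or with the length trend (25.1% and 17.7%). Leaving out 1 culture gave 0 to 7, with 7 without control 14 (21.5% of all genes), 4 without control 7 (24.5%), 2 without GDNF 12 or GDNF 17 (13.9% and 16.7%) and 1 without GDNF 6 (22.3%). The carrier genes among these were *Slc2a1*, *Slc2a8*, *Slc5a2*, *Slc5a5* and *Slc13a4* without control 14, and *Slc2a1*, *Slc5a9* and *Slc16a1* without control 7. On library size only they were *Slc2a8* and *Slc5a2*. Genes without overlap numbered 2 on library size only (*Slc16a11*, *Slc5a2*, 16.6% of all genes) and 0 to 3 with 1 culture left out, 3 without control 14 (*Slc16a14*, *Slc2a8*, *Slc5a2*, 17% of all genes), 2 without GDNF 17 (17.8%) and 1 without GDNF 6 or GDNF 22 (25.2% and 15.1%). Of 340 values of single genes under alternatives, 320 kept their direction and 20 reversed. *Slc16a12* became -0.013 with limma-voom and -0.066 with the length trend (-0.10 to 0.25 with 1 culture left out), *Slc16a13* 0.18 on library size only and 0.014 with limma-voom (-0.15 to 0.071), *Slc16a5* -0.0070 with limma-voom (-0.070 to 0.35), *Slc5a3* -0.45 with the length trend (-0.089 to 0.16), and *Slc2a3* 0.0099 and *Slc5a6* 0.091 on library size only. The difference in the ratio of *Slc2a3* to *Slc2a1* ran from -0.035 (without control 21) to 0.41, and that of *Slc16a3* to *Slc16a1* from -1.09 to -0.02 (without GDNF 6). The cause was not tested. No paired analysis was possible because the groups share no culture numbers.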
